A study of Mus musculus with 4 samples.

Results

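The genes described here encode 10 transcription factors of the ETS family that act downstream of fibroblast growth factor (FGF) signalling. They were chosen by symbol, as 10 of the 49997 gene rows in the count tables. Etv1, Etv4 and Etv5 make up the PEA3 subfamily, and Etv6, Ets1, Ets2, Elk1, Elk3, Elk4 and Gabpa are the 7 other ETS factors. The series measured ribosome-depleted total RNA, in stranded libraries, of mouse iMOP cells, an immortalized line of wild-type multipotent otic (inner ear) progenitors, as 2 libraries of proliferating cells and 2 of neurons derived from them. The proliferating cultures grew in DMEM/F12 medium with a B27 supplement, the antibiotic carbenicillin and, at 20 ng/ml, basic FGF. Neuron cultures grew in Neurobasal medium with an N21 supplement, L-glutamine at 2 mM and 1 µM K03861, which inhibits the kinase CDK2 of the cell cycle, and basic FGF is not among the components listed for them. Cell state, medium, basic FGF and the inhibitor changed together, so their contributions cannot be told apart. All 4 libraries come from 1 cell line, and the labels call the replicates biological without saying how the cultures were separated, so p-values measure the spread between these libraries. In these bulk samples, fewer cells of a type and less RNA per cell cannot be told apart.

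FGF binding to its receptors activates the kinase ERK through RAS, RAF and MEK. ERK phosphorylates ETS factors directly, among them ETS1, ETS2 and the ternary complex factors ELK1, ELK3 and ELK4, which bind DNA with serum response factor at immediate early genes. The PEA3 genes differ in that their own transcription is a classical readout of FGF signalling, relieved from repression by Capicua when ERK is active, and in the developing inner ear they are used as markers of FGF activity. ETV6 is a transcriptional repressor, and GABPA pairs with a GABPB subunit to activate housekeeping promoters. All ETS factors recognise DNA with a GGAA core.

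Start regions of the PEA3 genes are shown because these genes had the widest range of values between libraries. The RefSeq promoter table (GRCm38.p6) holds 12 windows for 8 of the 10 genes, and none for Etv4 or Ets1. In RefSeq GRCm38.p6, the PEA3 genes lie at chr12:38780082-38870483 (Etv1, plus strand), chr11:101769747-101785310 (Etv4, minus) and chr16:22381313-22439570 (Etv5, minus). The others lie at chr6:134035700-134270158 (Etv6, plus), chr9:32636241-32757820 (Ets1, plus), chr16:95702407-95721049 (Ets2, plus), chrX:20933395-20950608 (Elk1, minus), chr10:93247415-93311159 (Elk3, minus), chr1:132007577-132026448 (Elk4, plus) and chr16:84834891-84863783 (Gabpa, plus). The windows below are the 250 bases before an annotated start, 5′ to 3′ on the gene's strand, with GGAA and its reverse complement TTCC in capitals. The Etv1 window lies at chr12:38779832-38780081 on the plus strand, before the gene's first annotated start. The Etv5 window lies at chr16:22438369-22438618 on the minus strand, inside the gene and before an internal start. The further window of each of these genes overlaps exons of other transcripts of the same gene and is not printed.
Etv1: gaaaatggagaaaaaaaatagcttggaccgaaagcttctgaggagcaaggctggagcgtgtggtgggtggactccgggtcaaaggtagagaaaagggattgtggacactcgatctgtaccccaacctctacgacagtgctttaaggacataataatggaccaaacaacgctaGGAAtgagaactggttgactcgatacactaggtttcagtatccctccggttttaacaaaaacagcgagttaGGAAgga
Etv5: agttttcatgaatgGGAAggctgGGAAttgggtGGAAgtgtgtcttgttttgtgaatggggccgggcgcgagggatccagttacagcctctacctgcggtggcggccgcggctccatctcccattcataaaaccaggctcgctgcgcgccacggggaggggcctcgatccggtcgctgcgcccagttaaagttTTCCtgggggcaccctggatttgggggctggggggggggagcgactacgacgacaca
The Etv1 window held 2 cores and the Etv5 window 4, against a median of 3 over all 32851 windows of this length. The window before the first annotated start of Etv5 held 0, as did 6.55% of all windows. The longer sequence CGGAAG, or CTTCCG on the other strand, which contains the core, was in 0 of 4 windows of the PEA3 genes and in 3 of the 12 member windows, which belong to Elk4 (2 windows) and Gabpa (1 window), against 13.6% of all windows. The Capicua octamers TGAATGAA and TGAATGGA, searched on both strands, were in 0 of 12 member windows and in 1.08% and 1.01% of all windows. The cyclic AMP response element TGACGTCA and the AP-1 sequence TGAGTCA were also in 0 of 12, against 1.55% and 4.46%. These matches describe letters in a short window and not binding.

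The libraries differed in ways that touch every value below. Total counts ranged from 7446361 to 14484011, and the 18S ribosomal RNA row took 53.3% and 59.4% of them in the proliferating and neuron libraries of replicate 1, and 75.0% and 76.1% in those of replicate 2. Both replicate 2 libraries are titled as set 2, so replicates with the same number were compared as a pair. Defining markers did not follow the labels in a simple way. The neuron marker genes, 8 in number, summed to 139 and 331 CPM (counts of a library scaled to a common total with TMM factors) in proliferating replicates 1 and 2, and to 178 and 324 in neuron replicates 1 and 2. Tubb3 and Map2 made up most of these sums, with 194 and 92.3 CPM in proliferating replicate 2. Of the 8 markers, 5 were lower in the neurons of pair 1 and 6 were higher in those of pair 2. Elavl3, Elavl4, Map2, Rbfox3, Snap25 and Syt1 had their highest CPM in neuron replicate 2, and Tubb3 and Stmn2 in proliferating replicate 2. Elavl3, Snap25, Syt1 and Stmn2 were lowest in neuron replicate 1. Elavl4, a neuronal RNA-binding protein, had 7.56 and 12.2 CPM in the proliferating libraries and 17.7 and 38.0 CPM in the neurons. The otic progenitor and cell division markers summed to 337 and 143 CPM in the proliferating libraries and 407 and 210 CPM in the neurons, and Pax2 and Pax8 were at 0 counts in all 4 libraries. The 8 glial markers summed to 73.7 and 72.0 CPM in the proliferating libraries and to 25.7 and 9.38 CPM in the neurons. The 6 endothelial markers, relevant because endothelial cells express Ets1 strongly, had 12, 9, 7 and 1 counts in all, in the same order of libraries.

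None of the 10 genes was called different between neurons and proliferating cells. In the edgeR quasi-likelihood test over 12783 genes, 0 of 10 had an adjusted p-value under 0.05, as did 0% of all genes in each direction. At an unadjusted p-value under 0.05, 1 of 10 was lower in neurons, the PEA3 gene Etv4, against 2.51% of all genes, and 0 were higher, against 0.915%. DESeq2 also gave 0 adjusted calls among the 10 genes, against 0.375% of genes with an adjusted p-value called lower and 0.0957% called higher. It gave 1 gene lower at an unadjusted p-value under 0.05, again Etv4 (adjusted p = 0.135), against 2.75% of all genes. All 10 passed the filter on low counts, Etv4 and Etv5 with both proliferating libraries and 1 neuron library above its minimum. The fitted log2 fold changes of the PEA3 genes ran from -3.07 to 0.13 with a median of -2.07. Those of the other ETS genes ran from -0.87 to 0.34 with a median of -0.07, against a median of 0.02 over all genes tested. The median of the PEA3 genes depended on single libraries, with -4.45 without neuron replicate 1 and -0.55 without proliferating replicate 2.

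**Figure D1:**
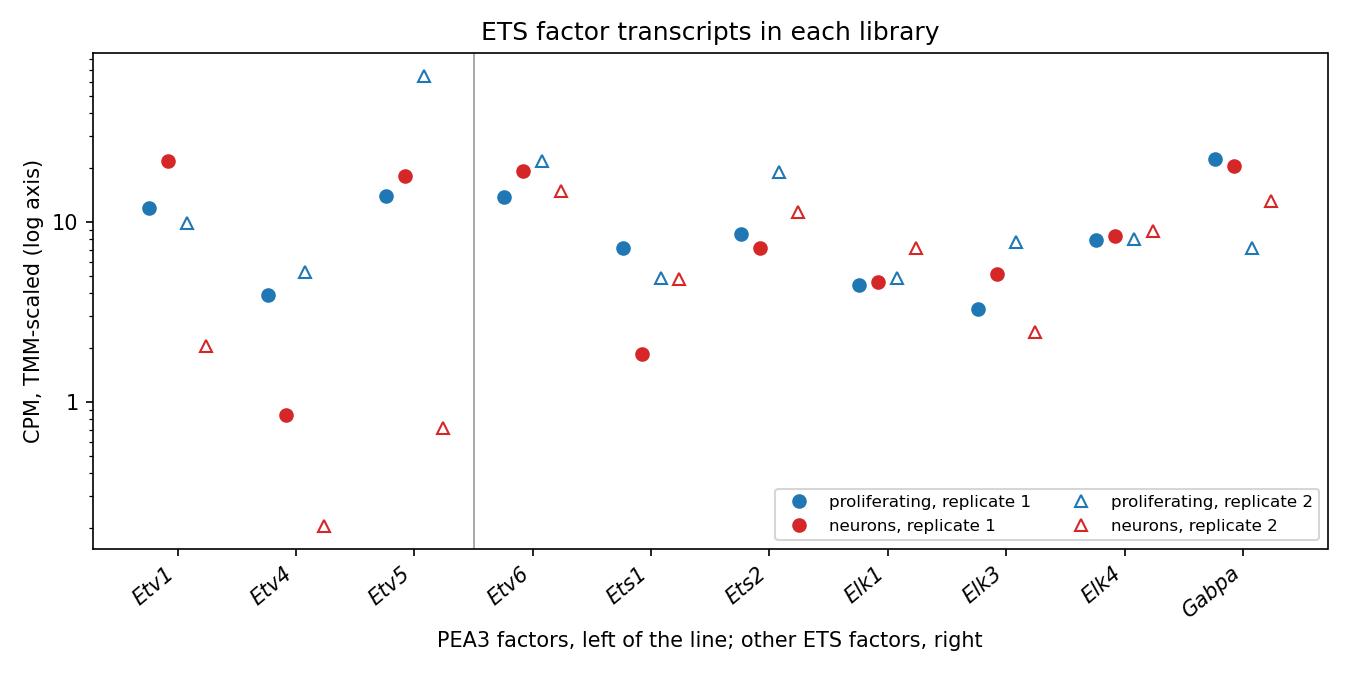
Transcript level of each of the 10 ETS genes in TMM-scaled CPM on a log axis, with 1 point per library (blue, proliferating; red, neurons; circles, replicate 1; open triangles, replicate 2). Etv1, Etv4 and Etv5 reach their lowest values in neuron replicate 2, while Elk4 stays between 7.89 and 8.87 CPM.

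Etv5 had the widest range of the 10 genes. It had 169 and 480 counts in proliferating replicates 1 and 2, and 213 and 7 counts in neuron replicates 1 and 2. As CPM these counts are 13.9 and 65.0, then 17.9 and 0.714. Neuron replicate 1 thus lay between both proliferating libraries, neuron replicate 2 lay far below all others, and the groups overlapped. The mean of the proliferating libraries was 39.4 ± 36.1 CPM and that of the neuron libraries 9.32 ± 12.2 CPM (SD, n = 2 for both). In the fit, Etv5 had a log2 fold change of -2.07 with SE 1.25 (edgeR adjusted p = 0.9998). Within replicate pair 2, Etv5 was 91.1-fold lower in the neurons, with an exact 95% interval of 43.9 to 228 that covers counting error only. Within replicate pair 1 it was 1.29-fold higher in the neurons (1.05 to 1.59), and with library size alone as the scaling this difference turned to -0.02 on the log2 scale. The proliferating replicates differed by 2.21 and the neuron replicates by -4.32 (replicate 2 minus replicate 1, log2 CPM), each more than the fitted difference between the groups. The gap between the differences of both pairs, -6.53 on the log2 scale, was the third most negative of the 12783 genes tested. With 1 library on each side of a pair, this gap has no test. Without neuron replicate 1, Etv5 was called lower in neurons (log2 fold change -5.81, edgeR adjusted p = 0.0231), as were 0.169% of the genes in that fit, and without proliferating replicate 2 its log2 fold change was -0.55.

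Etv4 was the PEA3 gene with the same direction in both pairs. It had 48 and 39 counts in the proliferating libraries and 10 and 2 in the neuron replicates. On the CPM scale these were 3.94 and 5.28 in proliferating cells and 0.841 and 0.204 in neurons, and the groups did not overlap. The proliferating mean was 4.61 ± 0.944 CPM, against 0.523 ± 0.451 CPM for the neuron libraries (SD, n = 2 for both). Etv4 was 4.69-fold lower in neurons in pair 1 (2.34 to 10.4) and 25.9-fold lower in pair 2, where the interval ran from 6.70 to 221 because only 2 counts were found in the neurons. Its log2 fold change was -3.07 with SE 0.78 (unadjusted p = 0.00501, edgeR adjusted p = 0.852). With the replicate number as a block the value was -3.16 with SE 0.77 (edgeR adjusted p = 0.250), and Etv4 was the 1 gene of the 10 lower at an unadjusted p-value under 0.05 in that fit, against 3.48% of all genes. Without the gene filter, when 25859 genes were tested, Etv4 was called lower (edgeR adjusted p = 0.0345), as were 0.472% of the genes in that fit. That fit gave a gene's own spread between libraries no weight beside the trend over all genes, unlike the main fit. Over the alternatives that left out 1 library each, the log2 fold change of Etv4 stayed between -4.45 and -2.44.

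Etv1 went in opposite directions in the pairs. It had 145 and 73 counts in the proliferating libraries and 259 and 20 in the neuron replicates, which are 11.9, 9.88, 21.8 and 2.04 CPM in the same order. The neuron libraries held both the highest and the lowest value. In pair 1 Etv1 was 1.83-fold higher in neurons (1.49 to 2.26) and in pair 2 it was 4.85-fold lower (2.92 to 8.39), with intervals for counting error only. The log2 fold change of 0.13 with SE 0.92 (edgeR adjusted p = 0.9998) became -0.57 with the replicate block. It was -2.45 when neuron replicate 1 was left out and 1.00 when neuron replicate 2 was, so the direction for Etv1 rested on which neuron library was used.

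All 3 PEA3 genes had their lowest level in neuron replicate 2, and they differed from each other in pair 1. In pair 2 the differences (log2 CPM, neurons minus proliferating) were -2.17 for Etv1, -3.78 for Etv4 and -6.17 for Etv5. In pair 1 they were 0.86, -2.00 and 0.36. Among the 10 ETS genes, 4 were at least 2-fold lower in the neurons of pair 2, all 3 PEA3 genes and Elk3, against 10.7% of all genes tested. In pair 1 there were 2, Etv4 and Ets1, against 7.77% of all genes. At least 2-fold higher were 0 of 10 in pair 1 and 0 of 10 in pair 2, against 4.69% and 20.0%. The median of the PEA3 genes was 0.36 in pair 1 and -3.78 in pair 2, and that of the other ETS genes was 0.06 and -0.02. Over all genes tested the medians were 0.0 and 0.07. Of the 10 genes, 3 were lower in the neurons of both pairs (Etv4, Ets1 and Ets2), against 25.5% of all genes, 2 were higher in both (Elk1 and Elk4), against 28.8%, and 5 went in opposite directions, against 45.7%, with the signs of Etv5, Elk1 and Elk4 in pair 1 turned when library size alone was the scaling.

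**Figure D2:**
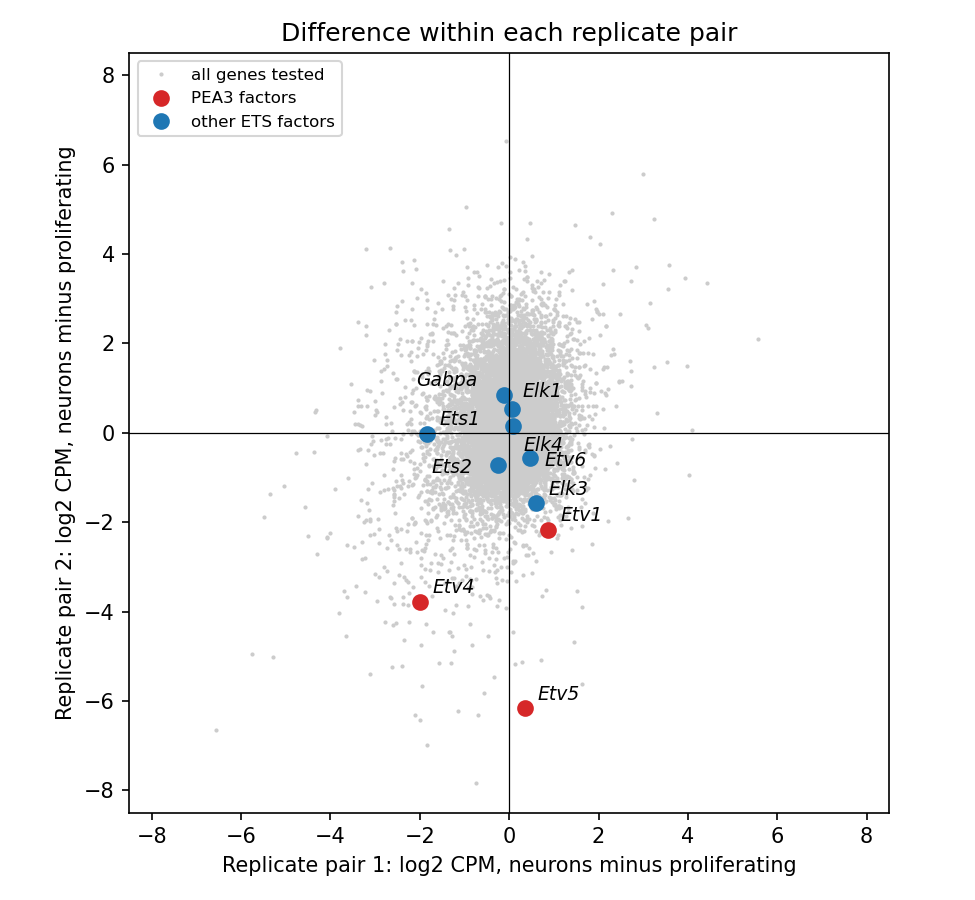
Difference in log2 CPM between neurons and proliferating cells within replicate pair 1 (horizontal) and pair 2 (vertical), with each of the 12783 tested genes in grey. The 3 PEA3 genes (red) lie between -6.17 and -2.17 on the vertical axis, and the 7 other ETS genes (blue) between -1.58 and 0.85.

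Set against the other ETS genes within the same library, the PEA3 genes also separated neuron replicate 2. Their part of all counts of the 10 genes does not depend on the scaling of libraries. It was 30.6% in proliferating replicate 1 (exact 95% interval 28.0% to 33.3%) and 52.2% in proliferating replicate 2 (49.3% to 55.1%). In the neurons it was 37.8% in replicate 1 (35.2% to 40.6%) and 4.5% in replicate 2 (3.1% to 6.4%). The neuron share of replicate 1 lay between both proliferating shares, so the groups overlapped. Etv5 had the widest range of shares, with 14.3% and 42.3% of the counts in the proliferating libraries and 16.7% and 1.1% in the neurons. Summed over the 7 other ETS genes, the level was 67.4 and 73.4 CPM in the proliferating libraries and 66.6 and 62.4 CPM in the neurons. Summed over the PEA3 genes it was 29.7 and 80.1 CPM against 40.5 and 2.96 CPM.

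**Figure D3:**
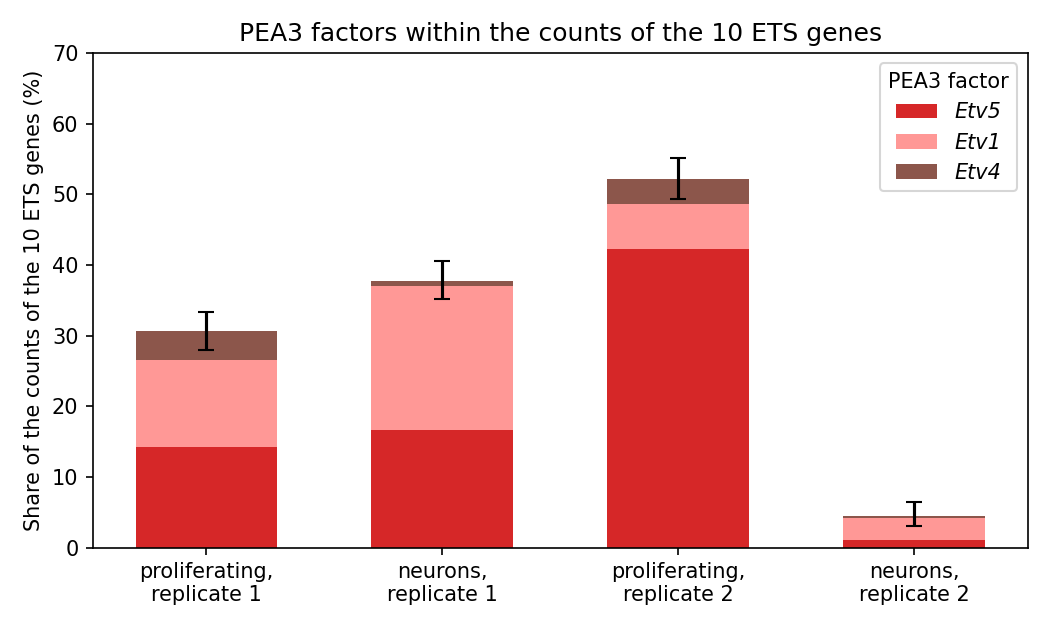
Share of the PEA3 genes in the counts of all 10 ETS genes, stacked by gene for each library, with exact 95% intervals of the summed share for counting error only. The share is 52.2% in proliferating replicate 2 and 4.5% in neuron replicate 2, with 30.6% and 37.8% in the replicate 1 libraries.

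Ets1 and Ets2, closely related activators that ERK phosphorylates, both had lower fitted values in neurons without passing the test. Ets1 had 87 and 36 counts in the proliferating libraries and 22 and 47 in the neurons, or 7.15, 4.87, 1.85 and 4.79 CPM. Both neuron values were below both proliferating values, but the neuron value of replicate 2 was only just below. Ets1 was 3.86-fold lower in the neurons of pair 1 (2.40 to 6.48), while in pair 2 the proliferating value was 1.02 times that of the neurons (0.640 to 1.60). Its log2 fold change was -0.87 with SE 0.62 (edgeR adjusted p = 0.9998). Ets2 had 104 and 139 counts in the proliferating libraries and 85 and 111 in the neurons, which are 8.54, 18.8, 7.15 and 11.3 CPM. The groups overlapped for Ets2, with a log2 fold change of -0.56 and SE 0.57 (edgeR adjusted p = 0.9998).

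The ternary complex factor genes Elk1, Elk3 and Elk4 had low to moderate levels in all libraries. Elk4 varied least of the 10 genes, with 96 and 59 counts in the proliferating libraries and 99 and 87 in the neurons, or 7.89, 7.99, 8.33 and 8.87 CPM. Both neuron values were above both proliferating values, by a log2 fold change of 0.12 with SE 0.46 (edgeR adjusted p = 0.9998), and with library size alone the sign of this value turned (-0.18). Elk1 had 54 and 36 counts in the proliferating libraries and 55 and 70 in the neurons, or 4.44, 4.87, 4.63 and 7.14 CPM, with overlapping groups and 0.34 as its log2 fold change (SE 0.51), or -0.01 with library size alone. Elk3, a ternary complex factor that can repress, had 40 and 57 counts in the proliferating libraries and 61 and 24 in the neurons, or 3.29, 7.72, 5.13 and 2.45 CPM. Like Etv1 and Etv5, Elk3 was higher in the neurons of pair 1 (1.56-fold, 1.03 to 2.39) and lower in those of pair 2 (3.15-fold, 1.93 to 5.31). Its log2 fold change was -0.52 with SE 0.64 (edgeR adjusted p = 0.9998).

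Etv6 and Gabpa were among the more abundant of the 10 genes. Etv6 had 168 and 162 counts in the proliferating libraries and 227 and 145 in the neurons, or 13.8, 21.9, 19.1 and 14.8 CPM. Both neuron values of Etv6 fell within the range of the proliferating values, and the log2 fold change was -0.07 with SE 0.48. Gabpa had 271 and 53 counts in the proliferating libraries and 243 and 128 in the neurons, or 22.3, 7.17, 20.4 and 13.0 CPM. The proliferating libraries held both extremes for Gabpa, with replicate 2 lower by 1.61 on the log2 scale, and the log2 fold change was 0.18 with SE 0.63 (edgeR adjusted p = 0.9998 for both genes). In GENCODE M21, exons overlap those of another gene on the opposite strand for Gabpa (Atp5j, 397 bases), Elk3 (Cdk17, 316 bases), Etv6 (Gm17089, 135 bases) and Elk4 (Mfsd4a), and on the same strand for Elk1 (Uxt, 76 bases) and Elk4 (Gm29103). The libraries are stranded, but how strand was used in counting is not stated in the sources used here, so reads there cannot be assigned with certainty. Of the 10 genes, 2 had groups that did not overlap with neurons lower (Etv4 and Ets1) and 1 with neurons higher (Elk4), against 14.5% and 12.9% of all genes tested, so the shares of the 10 genes are near the background.

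Levels of different genes were compared as CPM per kilobase of merged GENCODE exons. In proliferating replicate 1 the order was led by Gabpa at 3.92, Etv5 at 3.38 and Etv6 at 2.31. In proliferating replicate 2 it was led by Etv5 at 15.8, well above Etv6 at 3.67 and Ets2 at 3.26. In neuron replicate 1 Etv5 was again first at 4.37, followed by Gabpa at 3.59 and Etv6 at 3.19. In neuron replicate 2 Etv6 led at 2.47, followed by Gabpa at 2.29 and Ets2 at 1.96. There the PEA3 genes were the lowest 3 of the 10, with Etv5 at 0.174, Etv1 at 0.153 and Etv4 at 0.0657. They were also the lowest 3 in that library in the authors' RPKM values, at 0.0556, 0.0203 and 0.00600. The lengths behind the authors' RPKM are 0.66 to 7.41 times the merged exon length of these genes, so the order elsewhere depends on the length used: in proliferating replicate 1 the authors' RPKM put Etv5 first (2.61), then Elk1 (2.04) and Ets2 (1.96).

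By the distance between log2 CPM profiles centred over the 4 libraries, the tested gene outside the 10 that was nearest to Etv5 was Fabp7, a fatty acid binding protein of radial glia, at a distance of 0.797. Fabp7 had 272 and 362 counts in the proliferating libraries and 211 and 9 in the neurons. Gm3764 followed at 0.817, then Spry1, an inhibitor of receptor tyrosine kinase signalling, at 1.19, Hes5, a Notch target, at 1.19, and Hmga2, a chromatin protein of progenitors, at 1.29. The genes nearest to Etv4 were Kcnj16 at 0.275, Col5a1 at 0.295, Prrx2 at 0.465, Gm52261 at 0.525 and Metrn at 0.550. Those nearest to Etv1 were Gm35290 at 0.255, Gm51710 at 0.373, Mpeg1 at 0.470, Ypel4 at 0.530 and Gm52533 at 0.547. With 4 libraries many genes have similar profiles, and several of these had few counts, such as Mpeg1 with 14, 5, 16 and 0. The 3 PEA3 genes were further from each other than from these genes: Etv4 and Etv5 were 2.44 apart, Etv1 and Etv4 2.66, and Etv1 and Etv5 2.94. Among the 10 ETS genes, Etv4 and Etv5 were each nearest to the other, and Etv1 was nearest to Elk3 (1.92).

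Genes that restrain ERK, several of them known as its transcriptional targets, were all lowest in neuron replicate 2 where tested, by unequal margins. In pair 2, 9 of 9 were lower in the neurons, against 5969 of all 12783 genes tested. Dusp6, a phosphatase that inactivates ERK, had 7.15 and 37.1 CPM in the proliferating libraries and 3.11 and 0.306 CPM in the neurons. Spry2 had 9.70 and 65.4 CPM in the proliferating libraries and 5.22 and 3.16 CPM in the neurons. Spry4 had 43 and 324 counts in the proliferating libraries and 24 and 0 in the neurons. In these 3 genes, as in Etv5, proliferating replicate 2 was the highest library and neuron replicate 2 the lowest, but unlike Etv5 they were also lower in the neurons of pair 1. Il17rd, an FGF receptor antagonist, was only just lowest there, with 8.13 and 4.47 CPM in the proliferating libraries and 4.46 and 4.38 CPM in the neurons. Spred2, a RAS pathway inhibitor, had 29.5, 24.4, 48.3 and 16.5 CPM in the same order. Spred1 had 42.2, 56.7, 45.3 and 10.3 CPM, and Spred3 2.96, 7.99, 3.70 and 0.714 CPM. Dusp4, a nuclear phosphatase of ERK, was high in proliferating replicate 2 alone, at 15.8 CPM against 2.34 to 2.38 CPM in the others. Of the 10 feedback inhibitors in the list, 9 were tested, and these could pass the filter through the proliferating libraries alone. The edgeR test called 0 of the 9. Of these, 4 had an unadjusted edgeR p-value under 0.05 (Dusp6, Spry1, Spry2 and Spry4), all lower, against 2.51% of all genes. DESeq2 called 2 of the 9 lower, Dusp6 and Spry2, against 0.375% of genes with an adjusted p-value. The list's median log2 fold change was -1.93, with -0.70 in pair 1 and -3.17 in pair 2, and -0.86 without proliferating replicate 2. These genes and the members were chosen with earlier results known, so the list is no independent evidence of a direction.

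Serum response and immediate early genes, where ELK factors act with serum response factor, had lower values in the neurons of both pairs wherever they were tested. Egr1 had 33.4 and 29.1 CPM in the proliferating libraries and 0.673 and 0.714 CPM in the neurons. Fos had 10.2 and 5.28 CPM in the proliferating libraries and 1.68 and 0.714 CPM in the neurons. Of 11 genes in the list, 8 were tested, and these could pass the filter through the proliferating libraries alone. All 8 had groups that did not overlap, with neurons lower, against 14.5% of all genes, and 7 had an unadjusted p-value under 0.05, against 2.51%. The edgeR test called 0 of them, and DESeq2 called Egr1 lower, against 0.375% of genes with an adjusted p-value. With the replicate block edgeR called Egr1 (adjusted p = 0.0111), 1 of the 3 genes (0.0235%) called in that fit. The list's median difference was -2.52 in pair 1 and -2.49 in pair 2. The median for the PEA3 genes, 0.36 and -3.78, differed between the pairs where this one was nearly equal. Srf, the partner of the ELK factors, had 9.28 and 13.3 CPM in the proliferating libraries and 7.74 and 9.28 CPM in the neurons.

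**Figure D4:**
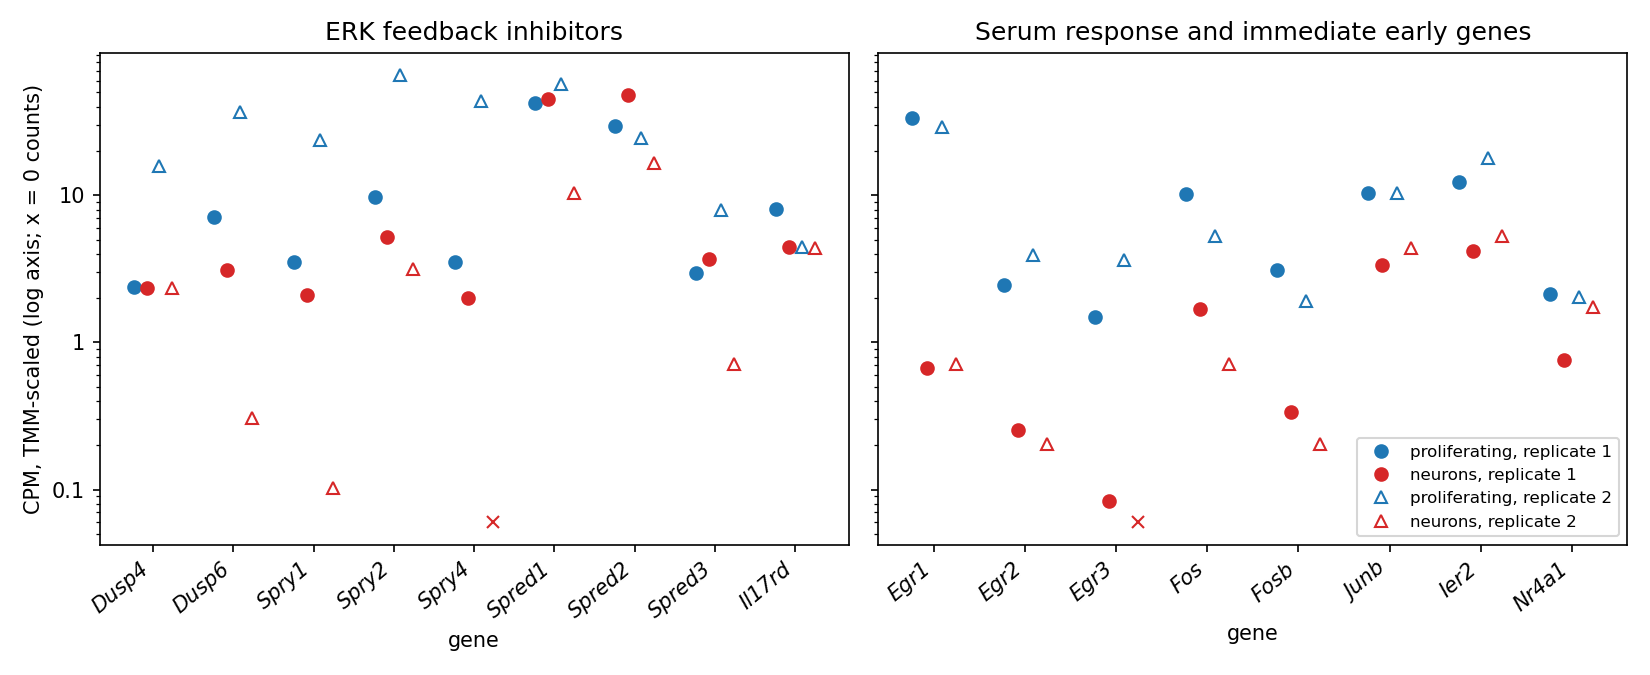
TMM-scaled CPM on a log axis for the tested ERK feedback inhibitors (left) and the tested serum response and immediate early genes (right), with colours and symbols for group and replicate as given in the key and a cross for 0 counts. Dusp6 spans 0.306 to 37.1 CPM with its extremes in the replicate 2 libraries, while Egr1 separates the groups in both pairs.

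Genes of the FGF receptors and of the route to ERK had no common direction. Of 22 genes, 20 were tested and 0 were called by edgeR. An unadjusted edgeR p-value under 0.05 was found for 1, the receptor gene Fgfr3, lower in neurons, against 2.51% of all genes. Fgfr3 had 109 and 193 counts in the proliferating libraries and 15 and 18 in the neurons. Its log2 fold change was -3.49 with SE 0.70 (edgeR adjusted p = 0.775). DESeq2 called it lower, as it did 0.375% of genes with an adjusted p-value. Fgfr1 had 22.0 and 38.0 CPM in the proliferating libraries and 24.6 and 14.5 CPM in the neurons. Nras, which encodes a RAS protein, had 252 and 39.3 CPM in the proliferating libraries and 54.8 and 63.8 CPM in the neurons. Of the 20 tested genes, 12 went in opposite directions in the pairs, against 45.7% of all genes. At least 2-fold lower in neurons were 3 in pair 1 (Fgfr3, Nras and Mapk3), against 7.77% of all genes. In pair 2 there were 4 (Fgfr1, Fgfr3, Hras and Map2k2), against 10.7%. At least 2-fold higher were 2 in pair 2 (Sos1 and Braf), against 20.0%. The list's median log2 fold change was -0.10, with -0.17 in pair 1 and 0.10 in pair 2.

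Genes that work with ETS factors gave 0 calls by edgeR or DESeq2 and 0 unadjusted p-values under 0.05 in edgeR among 10 tested. Cic, which encodes the repressor Capicua, had 297 and 246 counts in the proliferating libraries and 264 and 254 in the neurons, with a log2 fold change of -0.26 and SE 0.45. Cop1, a ubiquitin ligase for PEA3 proteins, had 141 and 29 counts in the proliferating libraries and 213 and 108 in the neurons. Gabpb1, the partner of Gabpa, had 164 and 97 counts against 208 and 113, and Gabpb2 had 1241 and 70 against 617 and 363. Like Gabpa, Gabpb2 was lowest in proliferating replicate 2. The rest of the ETS family has 17 genes in the list, of which 4 were tested and 6 were at 0 counts in all 4 libraries (Etv3l, Fev, Elf3, Elf5, Spi1 and Spic). The repressor gene Erf had 225 and 348 counts in the proliferating libraries and 221 and 75 in the neurons, with differences of 0.01 in pair 1 and -2.59 in pair 2. Etv3 was higher in both neuron libraries, with 92 and 76 counts in the proliferating libraries and 155 and 161 in the neurons (log2 fold change 0.72, SE 0.48, edgeR adjusted p = 0.9998). Erg and Fli1, ETS factors of blood and endothelial cells, had at most 3 counts in any library.

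Only some markers of other cell types set neuron replicate 2 apart. Among the tested glial, progenitor and hair cell markers, it held the lowest value of Fabp7, Sox9 and Sox2 and the highest of Atoh1. The tested mesenchyme marker Pdgfra and immune cell marker Cd68 were also lowest there, at 7.14 and 0.714 CPM. Among the 8 glial markers, 4 were tested. In replicate pair 2, Fabp7 had 49.0 CPM in proliferating cells and 0.917 in neurons, Gfap 12.0 and 0.204, Cnp 10.3 and 7.34, and Aqp4 0.271 and 0.510. Gfap was also low in neuron replicate 1 (0.0841 CPM), and Aqp4 was lowest in proliferating replicate 2. Of the 9 progenitor and cell division markers, 5 were tested. In pair 1, 4 of them were higher in neurons and 1, Sox9, was lower. In pair 2, 3 were higher and 2 lower. There, Sox9 and Sox2 had 58.1 and 48.1 CPM in proliferating cells and 4.18 and 22.0 in neurons. Mki67, Top2a and Eya1 had 81, 162 and 27 counts in proliferating cells of pair 2 and 459, 1285 and 57 in its neurons. On the CPM scale all 3 were lowest in proliferating replicate 2. Mki67 and Top2a had 46.8 and 131 CPM in neuron replicate 2, below both replicate 1 libraries. The 5 hair cell markers summed to 2.88 and 2.57 CPM in the proliferating libraries and 0.0841 and 9.68 CPM in the neurons. Most of this was Atoh1, a transcription factor of hair cells and of some neuron lineages, with 17, 18, 1 and 91 counts, while Pou4f3 and Otof were at 0 in all 4 libraries. Neuron replicate 2 had the largest total of counts and the largest 18S share, and 3461544 counts remained without that row. The others kept 3474760 and 2595578 in proliferating replicates 1 and 2 and 3850766 in neuron replicate 1. The part of cell composition and of the replicate set in the PEA3 values was not tested.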

How the data were processed

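Each library has a table of raw counts and a table of RPKM values per gene symbol, both deposited by the authors. The submitters' processing notes name HISAT2, SAMtools, featureCounts, DESeq2 and deepTools 3.4.3 and the build mm10, without role or settings. Stranded libraries were made from total RNA after ribosomal depletion and sequenced as paired reads, per the labels' protocols. The deposited RPKM is proportional to the deposited count over the count total, with 1 length per gene in all libraries.

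Counts of all 4 libraries were fitted with edgeR 4.0.16 in R 4.3.3 (TMM factors, filterByExpr with a minimum count of 10 and a minimum total of 15, glmQLFit and glmQLFTest, group as the single term), with Benjamini-Hochberg adjustment over 12783 genes, two-sided, and calls at 0.05. The method was tested on simulated data. Differences within a pair are in log2 CPM, computed with 2 prior counts, and ratios have exact 95% conditional binomial intervals. Intervals cover counting error only, since reads without molecular identifiers are not independent molecules. With 2 libraries against 2 an exact permutation test has a smallest two-sided p of 0.333, which is why single genes have none. Same-numbered libraries deviated together from their group means (r = 0.33 across genes), and the words set 2 in the titles of both replicate 2 libraries are the source of the pairing.

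The 10 genes and the other lists were chosen with earlier results of these data known. All 10 members and any gene of the lists could be named, and for each PEA3 gene the 5 nearest profiles by Euclidean distance. Alternatives were RLE factors, library size alone, DESeq2 1.42.0, other gene filters, limma 3.58.1 on log2(RPKM + 1) and log2(RPKM + 0.1), a replicate block, the 18S row left out and each library left out. Coordinates come from RefSeq GRCm38.p6, the assembly that mm10 denotes. Python 3.11.15 with pandas 2.3.3 and scipy 1.17.1 was used for the remaining values.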

Additional observations from a re-analysis of the deposited data

How the results depend on the processing

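Of 130 values of single ETS genes under the alternatives, 112 kept their direction and their side of the threshold, 16 changed direction and 2 became calls: Etv4 without a gene filter (1 ETS gene called, log2 fold change -3.04) and Etv5 without neuron replicate 1 (-5.81). The remaining counts of called ETS genes were 0, and leaving out 1 library gave 0 to 1. Over all genes, 0 were called higher and 0 lower, with 117 and 321 at an unadjusted p-value under 0.05. Calls appeared with DESeq2 (12 higher, 47 lower), without a gene filter (41 and 122), with library size alone (2 lower), log2(RPKM + 1) (1 lower) and log2(RPKM + 0.1) (2 lower). Leaving out 1 library gave 3 to 29 higher and 11 to 84 lower, in fits where the lone library of a group is assumed to vary like the others. The fits behind the Etv4 and Etv5 calls gave a gene's own spread between libraries no weight beside the trend over all genes. The replicate block gave 3 lower, turned Etv1 to -0.57 and changed no other direction or call of an ETS gene.

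Library size alone shifted the median of all genes from 0.02 to -0.27 and turned Elk1 (-0.01), Elk4 (-0.18) and Gabpa (-0.27), with a median of -0.27 for the other ETS genes. On the log2(RPKM + pseudocount) scale, which understates changes of low genes, the median of the PEA3 genes was that of Etv4, -0.25 with a pseudocount of 1 and -1.35 with 0.1, against -2.07. With log2(RPKM + 1), Elk4 was -0.03 and Gabpa -0.05. With log2(RPKM + 0.1), Etv1 was -0.19, Elk4 -0.09 and the median of the other ETS genes -0.22. Without 1 library, the median log2 fold change ran from -4.45 to -0.55 for the PEA3 genes and from -0.40 to 0.14 for the other ETS genes. The ranges of genes that changed direction were -2.45 to 1.00 for Etv1, -0.40 to 0.31 for Etv6, -1.07 to 0.13 for Ets2, -0.01 to 0.58 for Elk1, -1.20 to 0.23 for Elk3 and -0.39 to 1.19 for Gabpa. The cause was not tested. Low counts limit Etv4 most, with 10 and 2 counts in the neurons.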
